A study of Homo sapiens with 8 samples.

Results

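The 7 genes described here are CBS and 6 genes of the methionine and S-adenosylmethionine (SAM) cycle, namely MAT2A, AHCY, MTR, MTHFD1, SHMT2 and METTL16. They were chosen by the position of RBM45 CLIP peaks in wild-type HEK293T cells: the members' peaks are those that overlap the gene's hg19 interval on the gene's strand, and CBS was picked with its dense shared peaks already known. The 7 intervals held 135 of the 210878 stranded peak entries of replicate 1, 88 of the 65587 entries of replicate 2, and 36 of the 13758 deposited pairs of peaks shared by both replicates. Peak numbers, the agreement of the replicates and all fold values below are therefore given as a description, with no test.

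The study mapped RNA contacts of the RNA-binding protein RBM45 and their dependence on METTL3, which deposits most N6-methyladenosine (m6A) on messenger RNA. Its 8 libraries form 4 groups of 2 replicates: CLIP and size-matched input from METTL3 knockout cells, and CLIP and size-matched input from wild-type (WT) cells. All were HEK293T, a line of transformed human embryonic kidney cells. All carried FLAG-HA-tagged human RBM45 delivered by a lentivirus, and all were irradiated with ultraviolet light to cross-link protein to RNA. In CLIP, the tagged protein was then pulled down with an anti-HA antibody and its RNA fragments were sequenced. Only the WT CLIP peak lists were used, because the columns of the deposited read counts carry no sample label. The knockout and the inputs were not analysed here, read depth per list is unknown, and transcript level was not measured in these lists. Whether the replicates came from separate cultures is not stated, so their differences may be technical.

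SAM is the methyl donor of nearly all cellular methylation, including the m6A that METTL3 writes. MAT2A makes SAM from methionine, and methyltransferases turn SAM into S-adenosylhomocysteine, which AHCY splits into adenosine and homocysteine. Homocysteine is either methylated back to methionine by MTR, with a methyl group from the folate cycle that MTHFD1 and SHMT2 supply with carbon units, or condensed with serine by CBS and so committed to cysteine synthesis. METTL16 is an m6A methyltransferase that modifies U6 small nuclear RNA and the 3′ untranslated region of the MAT2A transcript, and it promotes MAT2A splicing when SAM is scarce.

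RBM45 CLIP peaks were far denser on CBS than on the other 6 genes in both replicates. The 23.7-kb CBS interval (chromosome 21, 44473301 to 44497000, minus strand, hg19) held 54 peaks in replicate 1, which is 2.28 per kb, and 38 peaks in replicate 2, or 1.6 per kb. Next by shared peaks came AHCY, with 0.507 per kb in replicate 1 and 0.571 per kb in replicate 2. SHMT2, MTHFD1, METTL16 and MTR held 0.175 to 0.535 per kb in replicate 1 and 0.0828 to 0.178 per kb in replicate 2. The least was seen on MAT2A, with 1 peak in replicate 1 and none in replicate 2. Shared peaks followed the same split, with 22 on CBS, 6 on AHCY, 3 each on MTHFD1 and MTR, 2 on METTL16 and none on SHMT2 or MAT2A. With 1 list per library these densities have no error. Fewer peaks can reflect fewer transcripts as well as less binding, and these cannot be told apart here.

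**Figure D1:**
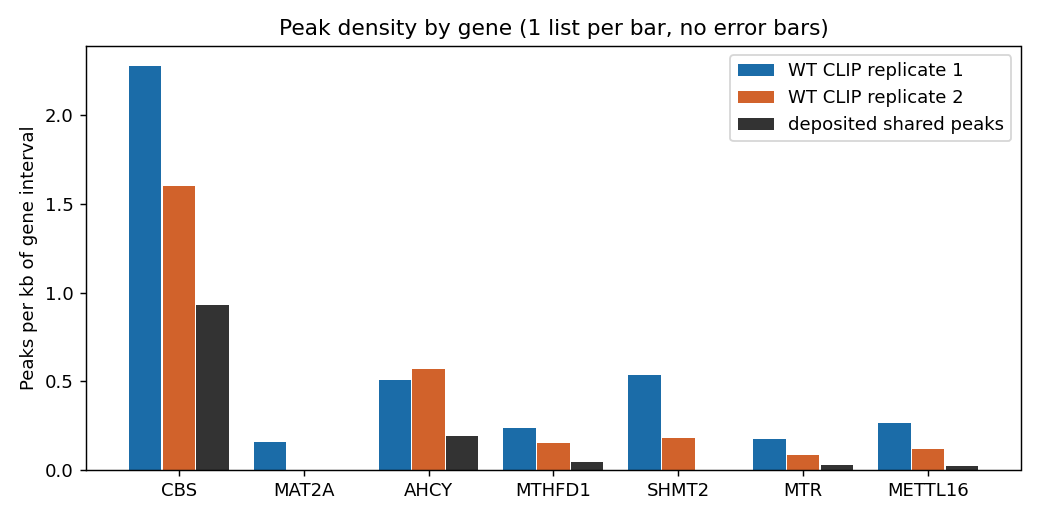
Peaks per kb of each gene's interval (vertical axis) in WT CLIP replicate 1, WT CLIP replicate 2 and the deposited list of shared peaks, for the 7 genes. Each bar is 1 list, so there are no error bars. CBS stands at 2.28, 1.6 and 0.928 per kb, and no other gene passes 0.571 in any list.

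Windows of the same length give the scale. When the genome was laid out on each strand in a fixed grid of windows as long as CBS, 49802 windows held at least 1 peak, with a median of 3 replicate 1 peaks and no replicate 2 peak. Of these, 6 windows held at least 54 replicate 1 peaks, 3 held at least 38 replicate 2 peaks and 2 held at least 22 shared peaks, where the fullest held 24. Peaks were counted in windows by midpoint, and the grid was not fitted to genes as the intervals are. A dense gene can be split between neighbouring windows, so these numbers of windows can be too low. For windows as long as AHCY, 5.80% held at least its 16 replicate 1 peaks, 0.631% at least its 18 replicate 2 peaks and 0.856% at least its 6 shared peaks. At the lengths of MTHFD1, MTR and METTL16, 5.91%, 7.84% and 12% of windows held at least as many shared peaks as the gene, and 77.5%, 74% and 75.2% held none. Shared peaks were used to choose the genes, so nothing is read from these shares. A window as long as MAT2A held no shared peak in 90.3% of cases, and one as long as SHMT2 in 90.6%.

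The CBS peaks were spread over most of the length of the gene but covered a small part of its bases. In replicate 1 they ran from 1.12 kb to 22.0 kb from the 5′ end of the interval, with a median step of 256 bases between neighbouring midpoints and no gap above 1.91 kb. In replicate 2 they ran from 1.21 kb to 23.6 kb, with a median step of 374 bases and a largest gap of 1.96 kb. Peaks covered 3596 bases of CBS in replicate 1, or 15.2% of the interval, and 2101 bases in replicate 2, or 8.86%. On each of the other 6 genes the peaks covered at most 2.64% in replicate 1 and 2.17% in replicate 2. Divided into 5 equal parts from 5′ to 3′, CBS held 9, 10, 15, 10 and 10 peaks in replicate 1, against 5, 12, 6, 11 and 4 in replicate 2. The shared peaks numbered 4, 8, 5, 5 and 0 in the same parts, so the part nearest to the 3′ end had peaks in both lists but none that was shared.

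**Figure D2:**
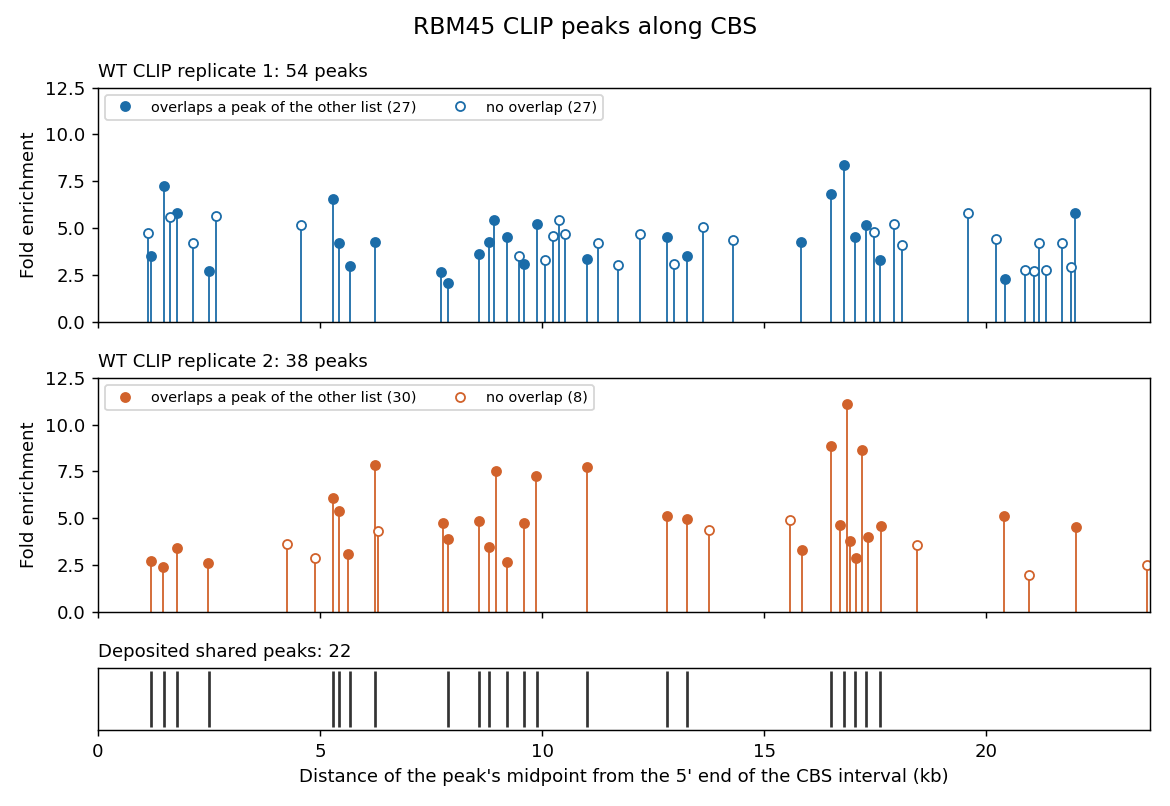
Fold enrichment of each CBS peak (vertical axis) against the distance of its midpoint from the 5′ end of the CBS interval in kb (horizontal axis), for WT CLIP replicate 1 above and replicate 2 in the middle, with the deposited shared peaks as lines at the bottom. Filled points overlap a peak of the other list, 27 of 54 in replicate 1 and 30 of 38 in replicate 2; the tallest points of both lists lie near 17 kb, and the last shared peak lies at 17.6 kb.

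Many CBS peaks of each replicate overlapped a peak of the other. Of the 38 replicate 2 peaks, 30 had at least 1 base in common with a replicate 1 peak on the same strand, or 78.9%, while the share over the whole replicate 2 list was 28.8%. Seen from replicate 1, 27 of 54 CBS peaks overlapped, or 50%, and 8.88% over the whole list. Shared peaks took part in choosing the members, so nothing is read from this difference. Among the 81 replicate 1 and 50 replicate 2 peaks of the other 6 genes, 19 in each list overlapped, which is 23.5% and 38.0%. The 8 CBS peaks of replicate 2 without a counterpart had a replicate 1 peak at a median of 242 bases, and 3 of them (37.5%) within 100 bases. Over the whole replicate 2 list the corresponding median was 782 bases, and 12.1% lay within 100 bases. Replicate 1 peaks on CBS had a median step of 256 bases. Where peaks are this dense, short distances arise without any agreement of the replicates, and overlaps of 1 base or more can too. Nothing is therefore read from either.

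The highest CBS fold of each list fell in a stretch about 17 kb into the interval. This stretch was singled out after its values were seen, and its bounds are the outer edges of a run of shared peaks, so overlap within it was set by that choice. Its median fold was 4.99 in replicate 1 and 4.59 in replicate 2, where all CBS peaks had 4.25 and 4.44. Between 44479343 and 44480529 on chromosome 21 the lists held 6 peaks in replicate 1, of 3.30-fold to 8.36-fold, and 8 peaks in replicate 2, of 2.86-fold to 11.1-fold. All 8 of the replicate 2 peaks and 5 of the 6 replicate 1 peaks overlapped the other list. The widest member peak, 342 bases from 44480032 to 44480373, was also the strongest of CBS in replicate 1, at 8.36-fold, and ranked 322 of 210878 entries by −log10 p. Replicate 2 listed 3 peaks over these bases, of 193, 47 and 34 bases, with folds of 4.62, 11.1 and 3.77. The 11.1-fold peak, 44480117 to 44480163, ranked 113 of 65587 entries by −log10 p and was the only member peak above 10-fold in either list. A 247-base replicate 1 peak beside it, 44479591 to 44479837 at 5.18-fold, likewise overlapped 2 replicate 2 peaks, of 4.02-fold and 8.62-fold. The widest CBS peak of replicate 2 was the 193-base one, 44480196 to 44480388.

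Past the last shared peak, whose midpoint lies 17.6 kb from the 5′ end, replicate 1 listed 12 peaks and replicate 2 listed 5. This part holds no shared peak by its definition. Within it, 2 peaks in each list overlapped the other list, by 22 and 17 bases, which was too little for the deposited list. The folds there ran from 2.31 to 5.83 in replicate 1 and from 1.96 to 5.14 in replicate 2. The peak nearest to an edge of any member interval was in this part, a replicate 2 peak of 86 bases and 2.52-fold that lay 36 bases inside the 3′ edge of CBS.

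Ranked by the lower of their 2 folds, the 5 leading CBS pairs were spread over the gene. The first, 44480476 to 44480528 at 16.5 kb, had 6.82-fold in replicate 1 and 8.83-fold in replicate 2. The second, 44491696 to 44491727 at 5.29 kb, had 6.57-fold and 6.07-fold, and its 2 peaks had midpoints 1 base apart. The third, 44487038 to 44487203 at 9.88 kb, had 5.25-fold and 7.27-fold. These 3 were the CBS pairs in which both peaks passed 5-fold. The fourth was the pair of the 342-base and 193-base peaks, with 8.36-fold and 4.62-fold, and the fifth, 44484174 to 44484203 at 12.8 kb, had 4.55-fold and 5.12-fold. The first shared peak from the 5′ end, 44495777 to 44495814, had 3.50-fold and 2.74-fold, and the last, 44479375 to 44479424, had 3.30-fold and 4.57-fold. In 20 of the 22 CBS pairs (90.9%) the 2 folds lay within a factor of 2, near the 90.5% of all 13758 pairs. The pair with the widest difference, 44495461 to 44495584, had 7.25-fold in replicate 1 and 2.40-fold in replicate 2, and a pair at 11 kb went the other way, with 3.36-fold and 7.73-fold.

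AHCY, the hydrolase that removes S-adenosylhomocysteine, was the only member with more peaks in the shorter list. Its 31.5-kb interval (chromosome 20, 32868071 to 32899608, minus strand) held 16 peaks in replicate 1 and 18 in replicate 2, a ratio of 0.889, while replicate 1 was the longer list by 3.22 times in all. The other members with peaks in both lists also lay below 3.22, from 1.42 on CBS to 3 on SHMT2. Of grid windows of this length with at least 20 peaks in both lists together, 3.34% had a ratio as low as that of AHCY, and their median was 2.50. Peaks took part in choosing the members, so nothing is read from this share. No AHCY peak of either list lay within 6.91 kb of the 5′ end. The folds in replicate 1 ran from 2.74 to 6.49 with a median of 3.51, and in replicate 2 from 2.30 to 8.88 with a median of 4.55. The 8.88-fold peak, 32879243 to 32879273, had no replicate 1 peak within 1546 bases. The shared peak with the highest fold in both lists, 32881230 to 32881270, had 6.49-fold in replicate 1 and 6.90-fold in replicate 2. Next to it, 32880820 to 32880849 had 5.94-fold and 4.98-fold. The other 4 shared peaks, at 10.8, 12.1, 23.4 and 27.8 kb, had 3.05-fold to 3.82-fold in replicate 1 and 4.12-fold to 5.31-fold in replicate 2, so replicate 2 gave the higher fold in each. The widest AHCY peak had 131 bases in replicate 1 and 61 in replicate 2. The gene name table used here lists 6 pseudogenes named after AHCY, 1 after MAT2A, 1 after MTHFD1 and none after the other 4 genes, and how reads that match a gene and its pseudogene were handled is not stated in the sources.

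The genes that bring methionine back or supply the folate cycle carried scattered peaks. MTR, the cobalamin-dependent methionine synthase (chromosome 1, 236958581 to 237067281, plus strand), held 19 peaks over 109 kb in replicate 1 and 9 in replicate 2. Its 3 shared peaks lay at 0.655, 27.2 and 51.5 kb from the 5′ end, all in the 5′ 50% of the gene. The middle one, 236985783 to 236985817, had 6.24-fold in replicate 1 and 8.01-fold in replicate 2, the highest MTR fold of replicate 2. It was 1 of 5 member pairs, of 36 in all, in which both folds passed 5. That is 13.9%, and the share over all 13758 pairs was also 13.9%. The other 2 had 3.41-fold and 3.48-fold at the 5′ end, and 3.06-fold and 3.32-fold at 51.5 kb. The highest MTR fold of replicate 1, 8.54, belonged to a 35-base peak at 74.0 kb that had no replicate 2 peak within 1647 bases. The widest MTR peak had 76 bases in replicate 1 and 57 in replicate 2.

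MTHFD1, the cytosolic folate enzyme with synthetase, cyclohydrolase and dehydrogenase activities (chromosome 14, 64854749 to 64926725, plus strand), held 17 peaks in replicate 1 and 11 in replicate 2. Every one of them was listed on both strands, 17 of 17 and 11 of 11, and so were its 3 shared peaks. Over all peaks that holds for 1.84% in replicate 1 and 1.66% in replicate 2, and no peak of the other 6 genes was listed on both strands. The sources used here do not say what set the strand of a peak on any member gene, and whether it came from reads was not tested. A single listed strand on the other 6 genes may therefore not be that of the RNA. The MTHFD1 peaks cannot be told apart from peaks of an RNA on the opposite strand. Its shared peaks had 3.89-fold in replicate 1 and 2.59-fold in replicate 2 (64872061 to 64872104), 5.35-fold and 3.08-fold (64873488 to 64873518), and 3.01-fold and 4.51-fold (64906107 to 64906136). The first of these 3 lay 17.3 kb and the last 51.4 kb from the 5′ end. The highest fold was 5.35 in replicate 1 and 6.43 in replicate 2. The 6.43-fold peak lay 113 bases from the nearest replicate 1 peak. Its widest peaks spanned 70 bases in replicate 1 and 64 in replicate 2.

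SHMT2, the mitochondrial serine hydroxymethyltransferase (chromosome 12, 57623110 to 57628718, plus strand), held 3 peaks in replicate 1, of 3.24-fold, 2.97-fold and 5.56-fold, and 1 peak in replicate 2, of 4.23-fold. The 86-base replicate 1 peak at 57627362 to 57627447 and the 37-base replicate 2 peak at 57627412 to 57627448 had 36 bases in common. That is under 50% of the replicate 1 peak, the share that every deposited pair reached, so SHMT2 has no shared peak in the deposited list although the replicates met there.

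**Figure D3:**
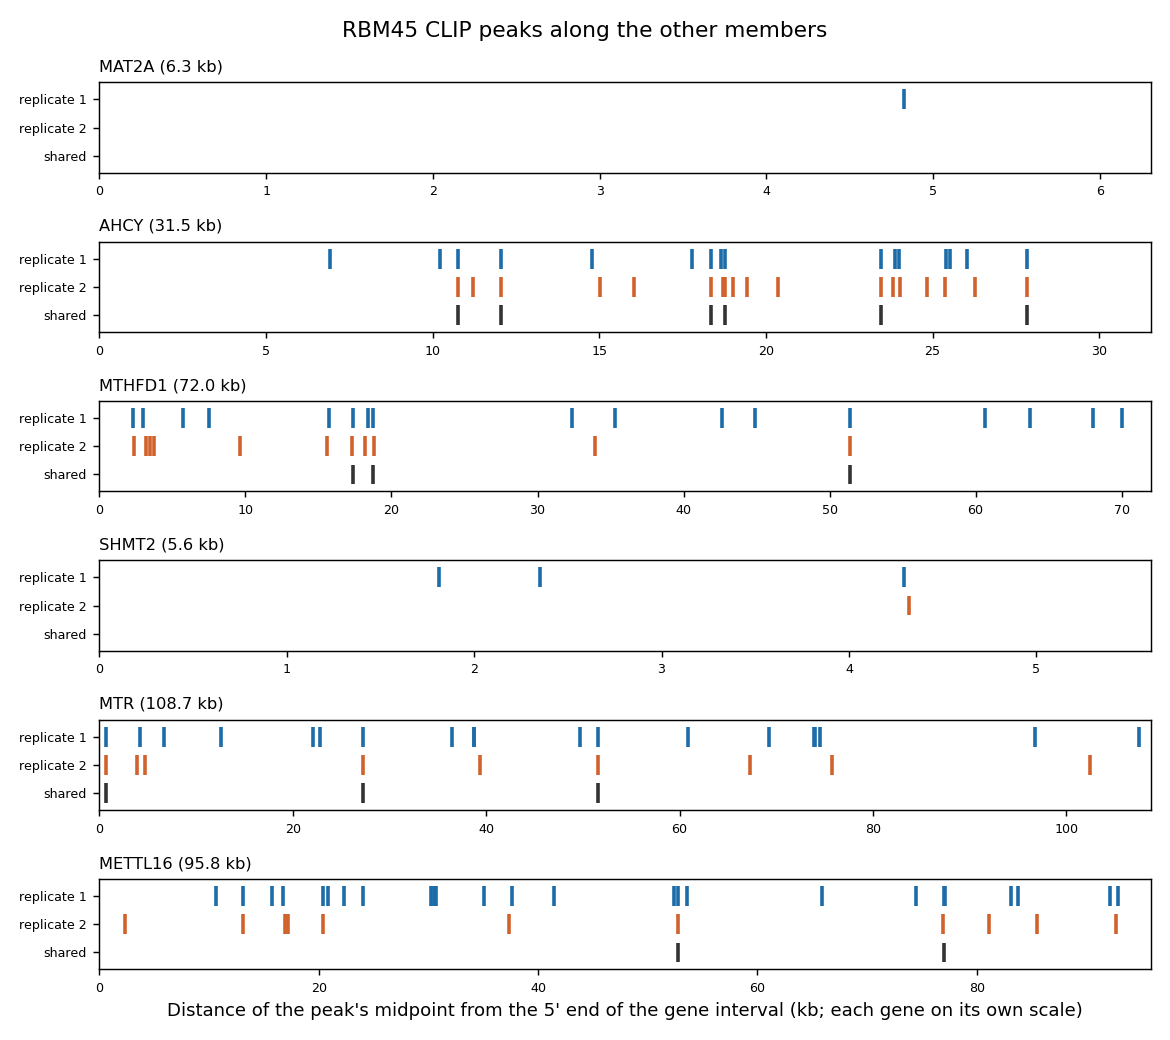
Midpoints of the peaks of MAT2A, AHCY, MTHFD1, SHMT2, MTR and METTL16 along each gene, as distance from the 5′ end of the interval in kb (horizontal axis, own scale for each gene), with replicate 1, replicate 2 and the deposited shared peaks in separate rows. AHCY has no peak within 6.91 kb of its 5′ end, MAT2A has 1 peak in all, and shared peaks are few and scattered on MTHFD1, MTR and METTL16.

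MAT2A, which encodes the catalytic subunit of the SAM synthetase found outside the liver (chromosome 2, 85766101 to 85772403, plus strand), held a single 31-base peak in replicate 1, 85770908 to 85770938, 4.82 kb from the 5′ end of an interval of 6.30 kb. Its fold of 2.25 was the lowest maximum of any member, although its −log10 p of 11.5 ranked 5715 of 210878. Replicate 2 listed none, and its nearest peak on the strand was 69161 bases away from this one. The gene of the methyltransferase, METTL16 (chromosome 17, 2319343 to 2415185, minus strand) held 25 peaks in replicate 1 and 11 in replicate 2, and 4 replicate 2 peaks overlapped replicate 1. Only 2 of those were in the deposited list. They lay at 52.7 kb, with 5.40-fold in replicate 1 and 4.85-fold in replicate 2 (2362428 to 2362464), and at 77.0 kb, with 2.85-fold and 3.80-fold (2338193 to 2338234). The highest METTL16 fold was 5.45 in replicate 1 and 5.58 in replicate 2, and neither peak had a counterpart. The widest METTL16 peak had 98 bases in replicate 1 and 53 in replicate 2. The 3′ untranslated regions, exons and introns were not placed on these positions, since that needs an annotation in hg19.

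CBS peaks tended to be wider and higher in fold than the lists they came from. In replicate 1 the median CBS peak spanned 47.5 bases and in replicate 2 it spanned 41 bases, where the whole lists had medians of 30 and 31 bases. Peaks of exactly 30 bases made up 5 of 54 CBS peaks in replicate 1 (9.26%) and 8 of 38 in replicate 2 (21.1%), and 51.6% and 47.9% of the whole lists. Wider than 100 bases were 10 CBS peaks in replicate 1 and 3 in replicate 2, or 18.5% and 7.89%, and 1.90% and 0.659% of the whole lists. On the other 6 genes the median widths were 35 and 32.5 bases, and 1 peak in replicate 1 and none in replicate 2 passed 100 bases.

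The median fold of CBS peaks was 4.25 in replicate 1 and 4.44 in replicate 2, that of the other members 3.57 and 4.37, and that of the whole lists 3.12 and 3.81. Peaks above 5-fold numbered 16 of 54 on CBS in replicate 1 (29.6%) and 11 of 38 in replicate 2 (28.9%). On the other 6 genes they numbered 11 of 81 (13.6%) and 12 of 50 (24.0%). Over the whole lists, 9.16% of replicate 1 and 18.0% of replicate 2 peaks passed 5-fold. Among shared peaks, both folds were above 5 in 5 of 36 member pairs (13.9%) and in 13.9% of all 13758 pairs. Folds and −log10 p come from the same calls as the peaks that chose the genes, so they too are a description.

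**Figure D4:**
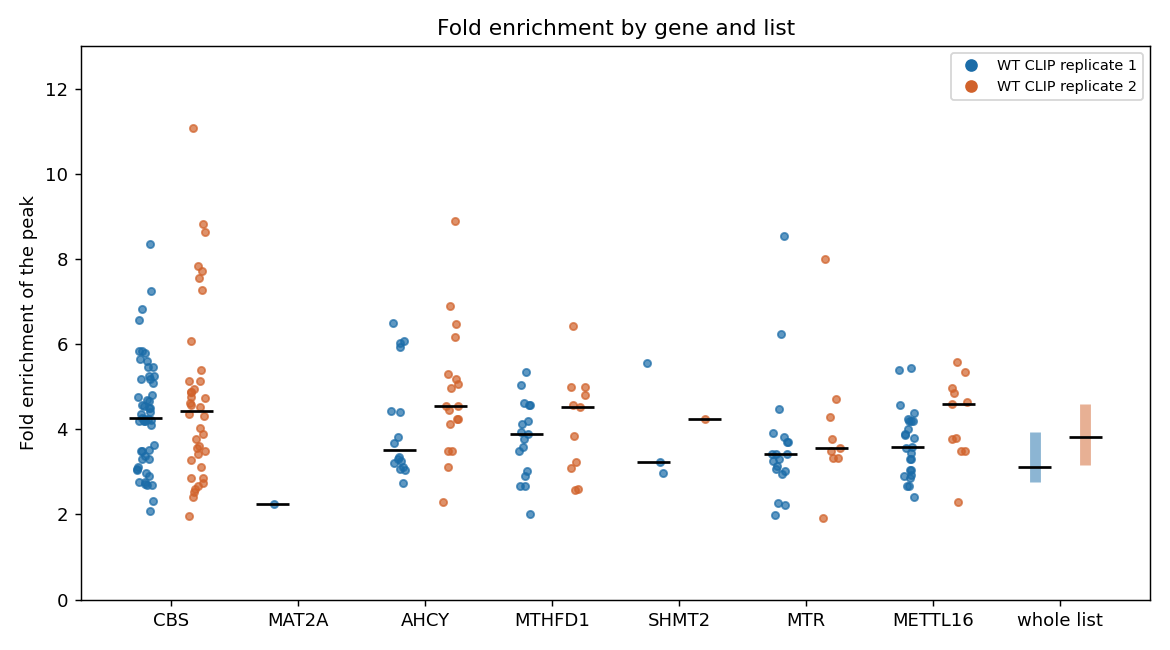
Fold enrichment of every member peak (vertical axis) by gene, with replicate 1 in blue on the left and replicate 2 in orange on the right of each gene; black bars are medians. The right-hand columns give the median and interquartile range of the whole lists, 2.76 to 3.94 around 3.12 in replicate 1 and 3.17 to 4.60 around 3.81 in replicate 2; CBS has medians of 4.25 and 4.44 with 1 peak above 10-fold.

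Every deposited pair covers at least 50% of its replicate 1 peak, which itself limits how far apart the paired midpoints can lie. Midpoints of the 36 member pairs were a median of 5 bases apart, and 22 were within 10 bases, or 61.1%, against 74.5% of all pairs. On CBS, 12 of 22 pairs were within 10 bases, or 54.5%, and the farthest, 89.5 bases, was the pair of the 342-base and 193-base peaks. The log2 ratio of replicate 1 to replicate 2 fold had a median of −0.11 and an SD of 0.60 over the 36 pairs, and an SD of 0.61 over all pairs. Replicate 1 gave the higher fold in 14 of the 36 pairs, 10 of them on CBS, and in 6428 of all 13758 pairs. Pairs on 1 gene share their transcript and their 2 libraries, and are not independent.

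**Figure D5:**
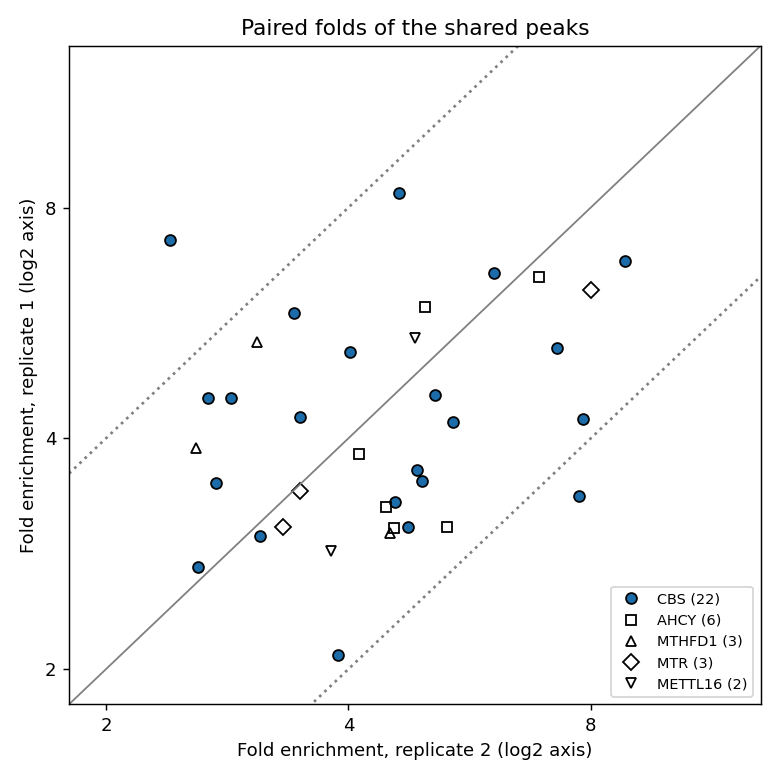
Fold enrichment in replicate 1 (vertical axis) against replicate 2 (horizontal axis) for the 36 deposited pairs on 5 member genes, both on log2 axes. The solid line marks equal folds and the dotted lines a factor of 2. Of the 36 pairs, 34 (94.4%) lie between the dotted lines, and the 2 outside are both on CBS. Over all 13758 pairs, which are not drawn, the share within a factor of 2 is 90.5%.

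The nearest peak outside an interval on the gene's strand was 4844 bases from METTL16, at 3.31-fold, and 6936 bases from SHMT2, at 2.34-fold, both in replicate 1. The peaks just inside those ends lay 2920 bases within METTL16, at 2.42-fold, and 1796 bases within SHMT2, at 3.24-fold. Inside METTL16 the largest gap between neighbouring replicate 1 peaks was 12.3 kb, so the step to that outside peak was shorter than that largest gap. For the other 5 genes the nearest listed outside peak was 41.0 to 174 kb away, the farthest for CBS. Of the numbers in the peak names, 25.6% in replicate 1 and 15.2% in replicate 2 are absent from the lists. Peaks outside the genes may be among those absent, so these distances hold for listed peaks only. The weakest member peak by −log10 p had 2.34, where the lists start at the caller's p threshold of 0.005.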

How the data were processed

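The members and lists were chosen with earlier results of these data known. Peaks were listed per WT CLIP library, and their names carry the caller MACS2 and a p threshold of 0.005. The submitters' processing notes name hg19, deepTools 3.2.1, HOMER 4.11.1, MACS2 2.1.1.20160309, Novoalign 3.09.00 and bedtools 2.25.0, with no role. The sources used here do not state whether peaks were called against an input. The deposited lists give each peak's fold enrichment (a ratio to background), its unadjusted −log10 p and a score that is 10 times that value cut to a whole number. These are the authors' own values for single peaks. The deposited list of shared peaks also gives the bases in common per pair, and held same-strand pairs covering at least 50% of the replicate 1 peak.

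Each peak was kept once per strand. Peaks overlapped where 1 base or more was in common on the same strand. The overlap count was tested on simulated data and against bedtools 2.31.1, and both gave 18914 overlapping replicate 2 entries. Positions count from 1, and distances run from the gene interval's 5′ end to a peak's midpoint. Python 3.11.15, numpy 2.4.6, pandas 2.3.3 and matplotlib 3.10.9 were used. All 7 genes are named, with each shared pair of genes that have at most 5, otherwise the 5 pairs with the highest lower fold, the highest-fold and widest peak of each list, and the first and last pair; the remaining AHCY pair and the CBS stretch were added. The 16 per-library count columns match no sample label and were not used, so the planned knockout test was not run. Other genes of the pathway, sequences and gene parts were not analysed here, since they need hg19.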

Additional observations from a re-analysis of the deposited data

How the results depend on the processing

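Over all 7 genes, counts stayed within 1.5 times their value, and the median fold within the spread between replicates, under every alternative run. Some of these alternatives could not have given another outcome, as said below. Counts of 135 and 88 peaks in replicates 1 and 2 did not change when peaks had to lie wholly inside the interval or when it was extended by 1 kb. Neither setting could change them, since no peak crossed an edge and the nearest outside peak lay 4844 bases away. The counts were 152 and 99 with either strand, where the added entries are all on MTHFD1, and 111 and 67 in the stronger 50% of each list. The 49 replicate 2 peaks that overlapped replicate 1 were 34 with at least 50% of both peaks, 36 with at least 50% of the replicate 1 peak, 49 with strand ignored and 37 in the stronger 50% of each list. The median fold over both lists, 4.02, was 3.82 to 4.40 with 1 replicate left out and 4.36 in the stronger 50%. The values 3.82 and 4.40 are the replicate medians that also set the spread, so leaving 1 replicate out is not a separate check. For some single genes it did move the median, as given below. Counting all pairs with at least 1 shared base gave 49 shared peaks in place of 36, of which 30 were on CBS. Of 125 values recomputed, over all genes and gene by gene, 18 moved, all for single genes, and 0 reversed. The 4 overlapping METTL16 peaks were 2 under either 50% rule, and the 1 on SHMT2 was 0. In the stronger 50% of each list, replicate 2 peaks numbered 6 in place of 11 on MTHFD1 and 7 in place of 11 on METTL16, and 1 in place of 3 overlapping peaks was left on MTHFD1. With either strand MTHFD1 held 34 and 22 peaks. The median fold over both lists moved for CBS, from 4.33 to 4.52 in the stronger 50%, and for AHCY, from 4.31 to 3.51 without replicate 2. Those of MTHFD1 and MTR moved in the stronger 50% and without replicate 1, and that of METTL16 moved without replicate 1. CBS and AHCY kept the highest densities of shared peaks under both counts. SHMT2 had 1 pair of at least 1 base and none in the deposited list, and METTL16 had 4 and 2. No paired analysis was possible because no count column could be tied to a library.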

Other observations

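The numbers in the peak names ran without a gap inside each member interval with at least 2 peaks, which are 6 genes in replicate 1 and 5 in replicate 2. Over the whole lists, 25.6% of the numbers in replicate 1 and 15.2% in replicate 2 are absent.

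The number of times a peak is repeated in the deposited lists was nearly fixed by gene. Every CBS peak of both lists was listed 3 times, every SHMT2 peak 9 times, and every peak of MAT2A, MTHFD1, MTR and METTL16 once. All AHCY peaks were listed 2 times except the 1 nearest to the 5′ end of the interval, 6.91 kb from it in replicate 1, which was listed once. The sources used here do not say what the repeats stand for, and they were not counted as peaks.

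A gene named CBSL, which has sequence in common with CBS, is annotated in GENCODE release 29, which uses GRCh38. Of the distinct 31-base stretches in the CBS transcripts of that release, 55.9% also occur in CBSL transcripts. Of the 17 CBS transcripts, 0 have an identical sequence among those of CBSL. The peaks here are on hg19, not GRCh38, and whether CBSL has any part in the CBS peaks was not tested.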
